A study of Mus musculus with 6 samples.

Results

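Transcripts of 45 genes that copy DNA, or that bring a cell to the point of copying it, were followed in spleens of mice labelled Rag2/pfp KO and of wild-type mice. The genes were chosen by function, as components of the replication origin complex, helicase, polymerases, clamp, nucleotide supply and chromatin copying, together with the factors that open S phase. All probes annotated to them on an Illumina bead array were taken, which gave 68 probes for 42 genes, and testing was limited to probes that 3 or more of the 6 arrays detected (detection p below 0.05). This left 53 probes of 38 genes, among 12885 tested of 25697 probes in all. Of these 53 probes, 51 were detected on all 6 arrays and the other two on arrays of both groups. Expression of Gins1, Gins2 and Rfc3 was not analysed here.

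Each group holds 3 arrays of whole-spleen RNA. The knockout mice lack Rag2, which together with Rag1 cuts antigen receptor genes for rearrangement, and pfp, the older name of the perforin gene Prf1. The labels give no strain, age or sex, do not say which part of either gene was disrupted, and do not tell which arrays, if any, share an animal. What a p-value measures here is the spread among these arrays, part of which may be technical. Mice without Rag2 are known to lack mature B and T cells, while natural killer cells, myeloid cells and red cell precursors remain.

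Before a cell divides, the origin recognition complex marks start sites, and Cdc6 and Cdt1 load a ring of the Mcm proteins onto them. Cyclin E and the E2F transcription factors lead the cell into S phase, when Mcm10, Cdc45 and the GINS proteins turn the ring into an active helicase. Primase and DNA polymerase alpha then start each strand, the other polymerases extend it on the Pcna clamp, and chromatin factors rebuild nucleosomes and methylation behind the fork. In the mouse spleen, these genes are known from dividing lymphocytes and from red cell precursors, since the mouse red pulp makes red cells throughout life.

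Many of these genes share a promoter feature, and the promoters are shown first for that reason. E2F factors are known to bind sites of the type TTTCCCGC, TTTGGCGC, TTTCGCGC or TTTGCCGC, and these 4 words were searched on both strands, with overlapping matches counted, from 250 bases before to 50 bases after each annotated RefSeq start (GRCm38.p6). Of 38 listed genes with such a window, 14 (36.8%) held at least 1 match, against 704 of 27025 genes in the table (2.61%). Among 85 other replication and division genes with a window, described further below, 22 (25.9%) held a match, so the feature is not particular to the listed genes. In the listed genes, the match lay before the start in 9 of the 14 and only after it in 5. A CCAAT box, searched as CCAAT on both strands, was in 24 of the 38 listed genes (63.2%). It was in 58.8% of the other replication and division genes and in 41.1% of all genes. A match is a description of the letters and not a measured binding site. Of the 5 genes with a called probe, 3 carried an E2F-type match, and their windows are printed here with those of Mcm5 and Mcm6, whose upstream stretches hold overlapping pairs of matches. Each sequence runs 5′ to 3′ on the gene's strand and ends at the base before the start, with the matches in capitals. Mcm7 lies on the minus strand at chr5:138171884-138172133, Cdc6 on the plus strand at chr11:98907901-98908150, Uhrf1 on the plus strand at chr17:56304063-56304312, Mcm6 on the minus strand at chr1:128359706-128359955, and Mcm5 on the plus strand at chr8:75109259-75109508.
Mcm7: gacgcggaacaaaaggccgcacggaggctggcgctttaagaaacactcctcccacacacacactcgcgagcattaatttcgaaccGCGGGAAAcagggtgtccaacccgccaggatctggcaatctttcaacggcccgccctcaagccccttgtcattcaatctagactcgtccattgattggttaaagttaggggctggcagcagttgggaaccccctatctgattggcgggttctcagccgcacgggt
Cdc6: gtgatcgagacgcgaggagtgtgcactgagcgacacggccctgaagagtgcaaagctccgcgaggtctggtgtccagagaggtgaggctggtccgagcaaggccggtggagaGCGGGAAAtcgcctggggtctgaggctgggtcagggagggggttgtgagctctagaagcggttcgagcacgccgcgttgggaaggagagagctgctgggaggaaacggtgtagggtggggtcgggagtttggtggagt
Uhrf1: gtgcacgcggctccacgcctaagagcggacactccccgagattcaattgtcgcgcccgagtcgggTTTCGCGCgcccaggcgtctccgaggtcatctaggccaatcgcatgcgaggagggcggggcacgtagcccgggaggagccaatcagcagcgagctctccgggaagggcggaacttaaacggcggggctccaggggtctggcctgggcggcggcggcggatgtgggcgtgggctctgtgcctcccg
Mcm6: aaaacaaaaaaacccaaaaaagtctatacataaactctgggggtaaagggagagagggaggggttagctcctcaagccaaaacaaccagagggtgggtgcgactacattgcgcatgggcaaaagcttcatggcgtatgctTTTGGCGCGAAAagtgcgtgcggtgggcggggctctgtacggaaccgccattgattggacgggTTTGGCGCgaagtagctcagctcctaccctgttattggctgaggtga
Mcm5: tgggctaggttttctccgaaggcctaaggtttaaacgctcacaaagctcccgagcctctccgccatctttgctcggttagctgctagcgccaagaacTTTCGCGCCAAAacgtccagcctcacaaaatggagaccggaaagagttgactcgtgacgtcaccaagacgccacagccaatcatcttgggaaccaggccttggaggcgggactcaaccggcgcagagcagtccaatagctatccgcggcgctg

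In these printed stretches the match lies 165 bases before the start in Mcm7, 138 bases in Cdc6 and 185 bases in Uhrf1. Mcm7 has a further match after this start, at position 17. Mcm7 and Uhrf1 each have 2 windows, of which only the printed 1 held an E2F-type match. Mcm6 has an overlapping pair from 110 bases and a single match at 47 bases before the start, and Mcm5 an overlapping pair from 153 bases. E2f1, also called, had no match in its window, and no window was at hand for Prim2. The 11 tested genes with a match had a median difference between knockout and wild type of 0.67 log2 and the 22 without one a median of 0.82, a gene being read from its brightest tested probe. This difference between medians was not tested.

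**Figure D1:**
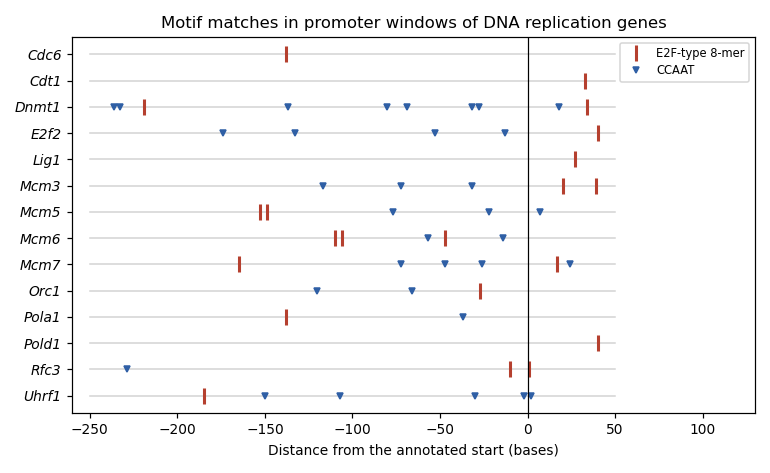
Matches of E2F-type 8-mers (red bars) and CCAAT (blue triangles) by distance in bases from the annotated start (x axis) in the 14 listed genes with an E2F-type match (y axis), each grey line being the window from 250 bases before to 50 after the start, with several starts of a gene overlaid. In 9 genes a red bar lies left of the start, and Mcm6 has 3.

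The arrays were alike in detection, with 12084 to 12595 probes detected on knockout arrays and 12545 to 13149 on wild-type arrays. The median of the unnormalized signal ran from 142 to 158 over the knockout arrays and from 151 to 164 over the wild-type arrays. Knockout replicate 2 differed from the other arrays in sex-linked transcripts. Its Eif2s3y probe, on the Y chromosome, read 8.30 log2 against 4.59 to 4.82 on the other 5 arrays, and its Xist probes were undetected there. No array detected the Rag2 probe, while both Prf1 probes were detected on all 6. The sources used here do not place either gene's probes against its deletion, so these signals check no label. Genes of B cells (8 of 8 tested) and T cells (5 of 5) fell in the knockout, with median differences of -5.15 and -5.33 log2.

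The tested DNA replication probes read higher on average in the knockout spleen in each of the 6 role groups, and 1 probe in each of 5 genes passed the test. For Cdc6 and Prim2, another tested probe did not pass. Signal is given as background-corrected, quantile-normalized log2 intensity, on which a difference of 1 is a 2-fold change, and calls rest on limma p-values adjusted by Benjamini-Hochberg over all 12885 probes, with a threshold of 0.05. Called higher were Mcm7 and Cdc6 of helicase loading, Prim2 of primase, the chromatin factor Uhrf1 and the transcription factor E2f1, and 0 probes were called lower. This is 5 of 53 probes, or 9.43%, where 0.978% of all tested probes were called higher and 2.94% lower. All 53 differences were above 0, from 0.13 to 1.59 log2 with a median of 0.82, where 52.9% of all tested probes lay above 0 and their median was 0.03. Without between-array normalization, 51 of the 53 were above 0, and with array weights 52. At an unadjusted p under 0.05, 35 of the 53 probes were higher and 0 lower, against 8.88% higher and 9.21% lower of all probes. Every knockout array lay above every wild-type array on 36 of the 53 probes (67.9%), which held for 12.4% of all tested probes. In bulk tissue, more cells of a type and more RNA per cell cannot be told apart.

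The number of calls depended on the processing and on single arrays. The authors' log2 values, which are quantile normalized without background correction, gave 7 called probes, 4 of them shared with the 5 above, all 53 differences above 0 and a median of 0.72 log2. In those values 1.01% of all probes were called higher and 2.62% lower. The split of calls over the whole array, 126 higher and 379 lower, was 16 and 857 when arrays were not normalized to each other. Under median centring it was 234 and 362. The median over all tested probes was -0.33 log2 in the first case and 0.13 in the second. The members' median exceeded that of all probes by 0.89 log2 in both, against 0.79 in the main values. Without wild-type replicate 1, 2 or 3, the called members fell to 0, 0 and 1, while the higher calls over the whole array were 7, 11 and 21. Without knockout replicate 1 there were 2 called members, 51 of 53 differences above 0 and a median of 0.52 log2. Without knockout replicate 2, the array that differs in sex-linked transcripts, there were 8 called members and a median of 0.93.

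**Figure D2:**
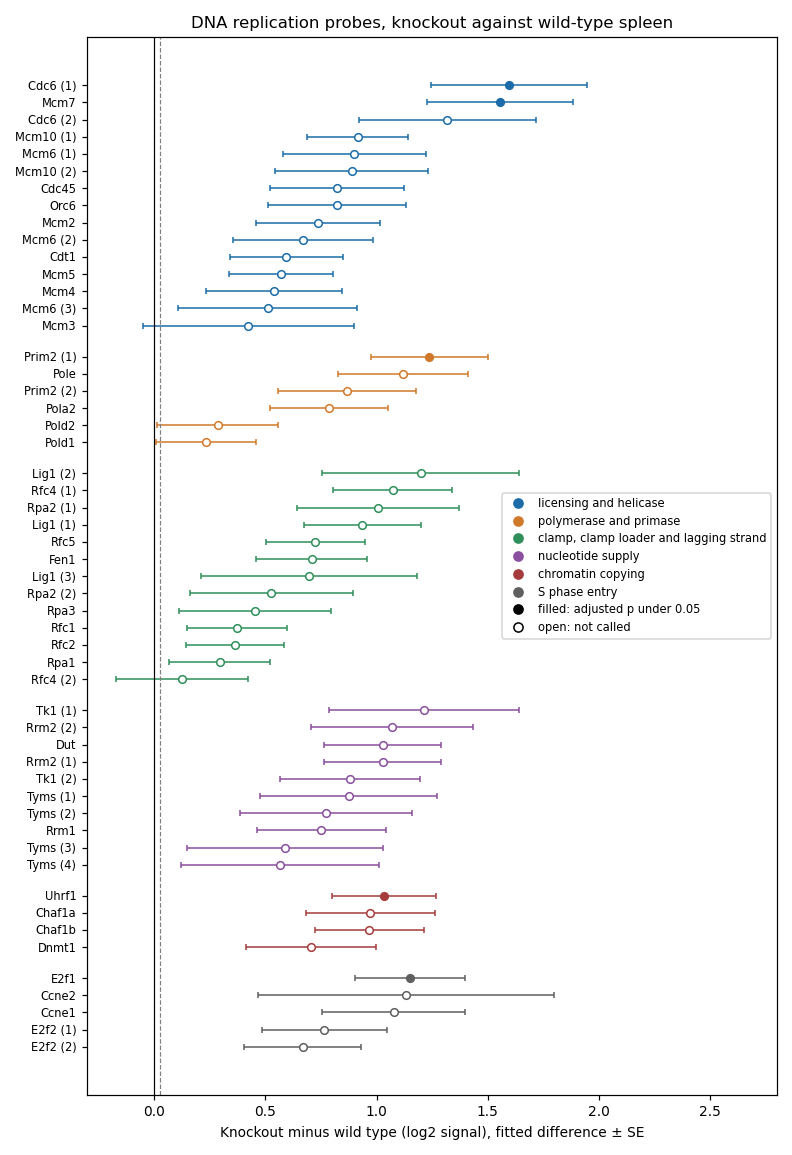
Fitted difference between knockout and wild type in log2 signal (x axis, point with SE bar, 3 arrays per group) for each of the 53 tested probes (y axis), grouped and coloured by role, with filled points for adjusted p under 0.05 and numbers in brackets for probes of the same gene. All points lie right of 0, between 0.13 and 1.59, and the dashed line at 0.03 is the median of all tested probes.

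Helicase loading and activation gave 15 probes of 11 genes, with a median difference of 0.82 log2, 2 called and 12 with no overlap between the groups. Mcm7, a subunit of the ring-shaped helicase, read 9.34, 9.95 and 10.54 log2 in wild type and 11.20, 11.78 and 11.51 in the knockout. The lowest knockout array stood 0.66 above the highest wild-type array, and knockout replicate 2 was the highest. Mcm7 rose by 1.55 ± 0.33 log2 (SE), or 2.94-fold (limma adjusted p = 0.0356), from 9.94 ± 0.60 to 11.50 ± 0.29 (SD, n = 3). Its call was lost without knockout replicate 2 or 3 and without wild-type replicate 1 or 2, with Mcm7 differences from 1.28 to 1.86 over the single arrays left out. It was also lost with no detection filter (adjusted p = 0.0973).

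Cdc6, the ATPase that loads the ring at origins, was measured by a dim and a brighter probe. The dim probe (Cdc6 probe 1) read 5.38, 5.80 and 5.55 in wild type and 7.92, 6.52 and 7.07 in the knockout. It rose by 1.59 ± 0.35 log2 (adjusted p = 0.0399), and in the authors' values it differed by 0.70 and was not called (adjusted p = 0.124). The brighter probe read 8.49, 8.52 and 8.51 in wild type and 10.56, 8.83 and 10.07 in the knockout, a difference of 1.32 ± 0.40 that was not called (adjusted p = 0.110). Both probes separated the groups, and knockout replicate 2 was the lowest knockout array on each. The call of the dim probe was lost without knockout replicate 3 and without any 1 of the wild-type arrays, with adjusted p up to 0.194. It was also lost without between-array normalization (adjusted p = 0.155), with no detection filter (adjusted p = 0.113) and with a normexp offset of 50 (adjusted p = 0.0720).

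The remaining subunits of the Mcm ring differed less and were not called. Mcm2 differed by 0.74 ± 0.28 log2 and Mcm5 by 0.57 ± 0.23, with no overlap between groups in either. Mcm6 differed by 0.90 ± 0.32, 0.67 ± 0.32 and 0.51 ± 0.40 on its 3 probes, of which the last overlapped. Mcm4 differed by 0.54 ± 0.31, with knockout replicate 2 at 12.71 below the wild-type arrays at 12.74 to 12.91. Mcm3 read 9.52, 8.71 and 9.22 in wild type and 10.65, 9.50 and 8.58 in the knockout, the smallest difference of the group at 0.42 ± 0.47. Its knockout arrays spanned the wild-type range on both sides, and without knockout replicate 1 the difference turned to -0.11.

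Mcm10, which helps to activate the helicase, differed by 0.92 ± 0.23 log2 on 1 probe (adjusted p = 0.0620) and by 0.89 ± 0.34 on the other. The first read 10.91, 11.03 and 11.30 in wild type against 12.11, 11.85 and 12.02, a knockout SD of 0.13, and was called in the authors' values (adjusted p = 0.0263). Cdc45, the helicase cofactor, differed by 0.82 ± 0.30, Orc6 of the origin recognition complex by 0.82 ± 0.31 and the loading factor Cdt1 by 0.59 ± 0.25. None of these 3 was called, and in each the groups did not overlap, by as little as 0.04 log2 for Cdc45.

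**Figure D3:**
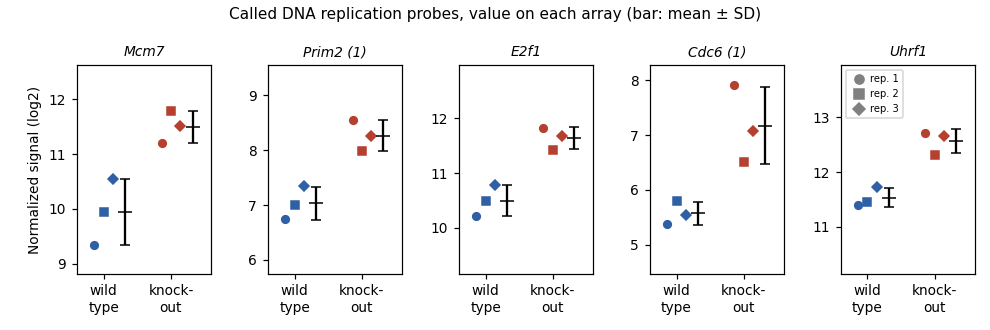
Normalized log2 signal (y axis) on each wild-type (blue) and knockout (red) array for the 5 called probes, with the replicate number given by the symbol and black bars for mean ± SD (n = 3). The groups do not overlap in any panel, and each panel spans the same range of log2 units.

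Polymerases and primase gave 6 probes of 5 genes with a median of 0.83 log2 and 1 call. Prim2, the large subunit of primase, read 6.74, 7.01 and 7.35 in wild type and 8.56, 7.99 and 8.25 in the knockout on its called probe (Prim2 probe 1). It rose by 1.24 ± 0.26 log2, or 2.36-fold (adjusted p = 0.0359), and was also called in the authors' values (adjusted p = 0.0478). Its other probe differed by 0.87 ± 0.31 (adjusted p = 0.173), again with no overlap. The call was lost without knockout replicate 1 or 3 and without any 1 of the wild-type arrays, with adjusted p up to 0.193. It was also lost without between-array normalization, where Prim2 differed by 0.75 (adjusted p = 0.219), and with no detection filter (adjusted p = 0.0629).

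Pole, the catalytic subunit of the leading-strand polymerase epsilon, differed by 1.12 ± 0.29 log2 (adjusted p = 0.0713), and Pola2, a subunit of polymerase alpha, by 0.79 ± 0.26. Pold1, the catalytic subunit of polymerase delta, read 11.55, 11.73 and 11.88 in wild type and 11.82, 11.94 and 12.11 in the knockout, a difference of 0.23 ± 0.23 (adjusted p = 0.669). Knockout replicate 1 lay within the wild-type range, and the other two above it. Pold2, another subunit of it, differed by 0.29 ± 0.27, with overlap, and by -0.077 without between-array normalization.

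Clamp loading, single-strand binding and lagging-strand joining gave 13 probes of 9 genes with a median of 0.70 log2, 0 called probes and 7 without overlap. At an unadjusted p under 0.05, 6 of these 13 probes were higher, and in the authors' values 1 was called. Rfc4, a subunit of the loader that opens the Pcna clamp, read 8.82, 9.27 and 9.22 in wild type and 10.58, 9.88 and 10.07 in the knockout, a difference of 1.07 ± 0.27 (adjusted p = 0.0628). Its second probe was detected on only 3 arrays, 1 of them knockout, and read 5.65, 5.66 and 5.40 against 6.32, 5.37 and 5.40, so that it gave 0.13 ± 0.30. That probe stood just inside the detection rule, and 3 of the alternatives turned its difference below 0.

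Other loader subunits differed by 0.73 ± 0.22 log2 for Rfc5, 0.37 ± 0.22 for Rfc1 and 0.37 ± 0.22 for Rfc2, all without overlap. Rfc5 was called in the authors' values (adjusted p = 0.0495). The single-strand binding protein RPA differed by 0.30 ± 0.23 for its large subunit Rpa1, by 1.01 ± 0.36 and 0.53 ± 0.37 on the probes of Rpa2, and by 0.45 ± 0.34 for Rpa3. Of these 4 probes, the groups were apart only for Rpa1.

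Lig1, the ligase that joins Okazaki fragments, was read by 3 probes that differed by 0.94 ± 0.26, 1.20 ± 0.44 and 0.70 ± 0.48 log2. The probe with the largest difference read 6.95, 7.29 and 7.24 in wild type and 9.12, 8.74 and 7.21 in the knockout. Knockout replicate 3 lay there within the wild-type range, and only the first of the 3 probes separated the groups. Fen1, the flap endonuclease that trims these fragments, differed by 0.71 ± 0.25, with wild-type arrays at 11.92 to 11.98 and knockout arrays at 12.45 to 13.07. Pcna itself was read by 1 probe that stood just outside the detection rule, on 2 knockout arrays and no wild-type array. It read 6.07, 4.85 and 6.15 in the knockout and 5.19, 4.91 and 5.01 in wild type and was not tested.

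Nucleotide supply gave 10 probes of 5 genes with a median of 0.88 log2, 0 called and 6 without overlap. At an unadjusted p under 0.05, 6 of the 10 were higher, and 0 were called in the authors' values. Rrm2, the small subunit of ribonucleotide reductase that is made in S phase, read 10.27, 10.37 and 10.58 in wild type and 11.88, 11.25 and 11.18 in the knockout. It differed by 1.03 ± 0.26 log2 (adjusted p = 0.0677) on this probe and by 1.07 ± 0.36 on the other, both without overlap. Rrm1, the large subunit, differed by 0.75 ± 0.29.

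Dut, which removes dUTP, differed by 1.03 ± 0.26 log2 (adjusted p = 0.0677), from 7.43 to 7.57 in wild type to 8.07 to 8.80 in the knockout. Tk1, the thymidine kinase of S phase, differed by 1.21 ± 0.43 and 0.88 ± 0.31 on its probes. The first read 7.96, 7.75 and 8.55 in wild type and 9.99, 9.60 and 8.31 in the knockout, with knockout replicate 3 inside the wild-type range. Tyms, the thymidylate synthase, had 4 tested probes at 0.88 ± 0.40, 0.77 ± 0.39, 0.59 ± 0.44 and 0.57 ± 0.45. The last read 5.53, 4.998 and 5.46 in wild type and 6.97, 5.71 and 5.02 in the knockout, with 4 arrays above detection, and knockout replicate 1 was the highest array on all 4 Tyms probes.

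Chromatin copying gave 4 probes of 4 genes with a median of 0.97 log2. Uhrf1, which reads half-methylated DNA and recruits the methyltransferase Dnmt1, read 11.41, 11.46 and 11.73 in wild type and 12.72, 12.32 and 12.66 in the knockout. It rose by 1.03 ± 0.23 log2, or 2.05-fold (adjusted p = 0.0442), and was called in the authors' values (adjusted p = 0.0220). Among the single arrays left out, the call held only without knockout replicate 2, with adjusted p up to 0.228 otherwise. It was also lost without between-array normalization (adjusted p = 0.156), with cyclic loess (adjusted p = 0.0528) and when only probes detected on all 6 arrays were tested (adjusted p = 0.0504). Dnmt1 itself read 9.93, 10.59 and 10.20 in wild type and 11.19, 10.46 and 11.18 in the knockout, a difference of 0.71 ± 0.29 with knockout replicate 2 inside the wild-type range. Chaf1a and Chaf1b, subunits of the nucleosome assembly factor CAF-1, both differed by 0.97 log2, with SE of 0.29 and 0.24 and no overlap. Chaf1b had an adjusted p of 0.0646 here (limma) and 0.0385 in the authors' values.

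The factors that open S phase gave 5 probes of 4 genes with a median of 1.08 log2. E2f1, the activating E2F factor, read 10.21, 10.49 and 10.78 in wild type and 11.83, 11.43 and 11.67 in the knockout. It rose by 1.15 ± 0.25 log2, or 2.22-fold (adjusted p = 0.0376), and was called in the authors' values as well (adjusted p = 0.0247). The call was lost without knockout replicate 1 or 3 and without any 1 of the wild-type arrays, with adjusted p up to 0.198. It was also lost without between-array normalization (adjusted p = 0.137) and with no detection filter (adjusted p = 0.0519). E2f2, its close relative, differed by 0.77 ± 0.28 and 0.67 ± 0.26 on its tested probes, and the second read 12.65, 12.54 and 12.70 in wild type against 13.75, 13.15 and 12.98. Neither probe overlapped between groups. Another E2f2 probe stood just outside the detection rule, on 2 of 6 arrays, and was not tested.

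Ccne1 and Ccne2 encode the E cyclins, partners of the kinase Cdk2. Ccne1 read 7.92, 7.71 and 8.16 in wild type and 9.60, 9.02 and 8.40 in the knockout, a difference of 1.08 ± 0.32 log2 (adjusted p = 0.106). Ccne2 read 9.85 on knockout replicate 1 but 7.07 and 7.07 on the other two, against 7.33, 6.73 and 6.54 in wild type, so its difference of 1.13 carried an SE of 0.67. Its probe is among 4 whose knockout SD was above 1 log2, the others being the Mcm3 probe and a pair of Lig1 probes.

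Of 11 genes with several tested probes, all probes of each gene lay above 0, and in 5 genes every probe separated the groups. The widest spread was 0.95 log2, between the Rfc4 probes, and the narrowest 0.03, between those of Mcm10. Without background correction the difference of the dim Cdc6 probe was 0.70 log2 in place of 1.59, and that of the dimmer Rpa2 probe 0.48 in place of 1.01. The difference of the bright Uhrf1 probe was 1.01 in place of 1.03, and that of the dim Rfc4 probe 0.048 in place of 0.13.

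**Figure D4:**
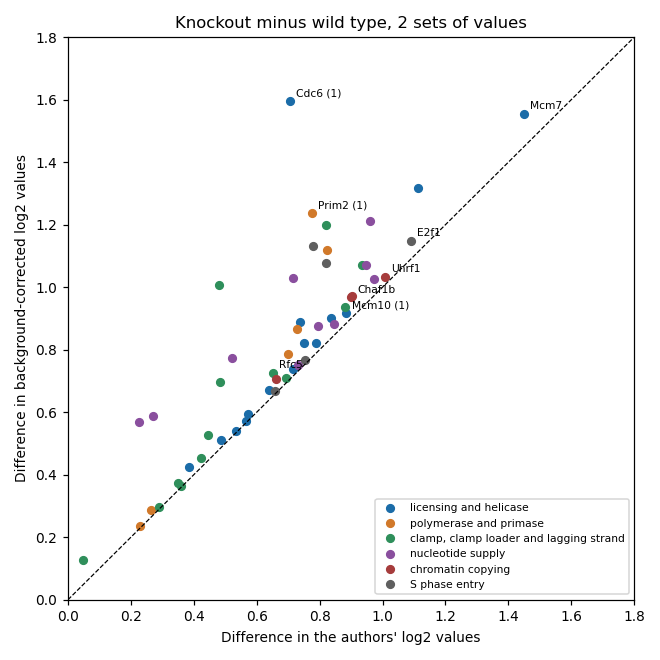
Difference between knockout and wild type for the 53 tested probes in the authors' log2 values (x axis) and in background-corrected log2 values (y axis), coloured by role, with the dashed line at equality and names for probes called in either. All points lie above 0 on both axes, and the dim Cdc6 probe lies farthest from the line, at 1.59 against 0.70.

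The 3 knockout arrays were unequal. Averaged over the 53 probes and set against the wild-type mean, knockout replicates 1 to 3 stood at 1.34, 0.61 and 0.49 log2, while the wild-type arrays lay between -0.09 and 0.09. Knockout replicate 1 was the highest knockout array on 48 of the 53 probes, replicate 2 on 2 and replicate 3 on 3. Replicate 1 led in each of the 6 roles, from 1.09 for the clamp and lagging-strand probes to 1.67 for the S phase entry probes. Replicate 2 was lowest for helicase loading, at 0.53, and chromatin copying, at 0.70, and replicate 3 in the remaining roles, at 0.30 to 0.54. Replicate 1 also had the highest median raw signal of the knockout arrays, and the part of signal strength in this order was not tested.

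Other genes of the replication and division pathways, 71 tested of 109 listed, lay above wild type in 63 cases, where 53.2% of 9158 genes did. Of the 71, 1 was called higher and 0 lower, where 1.04% of the 9158 genes were called higher and 2.88% lower. The higher call is thus near the share over all genes. Among 25 other replication factors (median 0.66 log2, 22 above 0), Pole3, a histone-fold subunit of polymerase epsilon, rose by 1.06 ± 0.24 (adjusted p = 0.0473), and Timeless of the fork protection complex differed by 0.99 ± 0.26 (adjusted p = 0.0726). Pold3, a subunit of polymerase delta, differed by 0.70 ± 0.23 (adjusted p = 0.138), with no overlap. Pold4, the small subunit of the same enzyme, differed by -1.21 ± 0.34 without being called (adjusted p = 0.0934), and Pold3 and Pold4 were picked out after seeing their values. Pold4 read 9.09 to 9.65 in wild type and 7.87 to 8.99 in the knockout. The 11 checkpoint and repair genes had a median of 0.85 log2, with 10 above 0, 0 called and 6 with an unadjusted p under 0.05. Their lowest p-values were those of the recombination genes Rad54l, at 0.94 ± 0.25 (adjusted p = 0.0736), and Brca2, at 1.06 ± 0.29 (adjusted p = 0.0793).

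The 21 tested regulators of G1 and S had a median of 0.46 log2, with 17 above 0, 0 called and 6 with an unadjusted p under 0.05. Rb1, which restrains E2F, differed by 0.89 ± 0.28 (adjusted p = 0.117) and E2f4, a repressive E2F, by 0.71 ± 0.27 (adjusted p = 0.209). All 14 tested genes of mitosis lay above 0, with a median of 0.79 log2, 11 without overlap, 0 called and 11 with an unadjusted p under 0.05. Over all tested probes, 12.4% had every knockout array above every wild-type array, and 8.88% were higher at an unadjusted p under 0.05. Nusap1, a spindle protein, differed by 1.11 ± 0.27 (adjusted p = 0.0552) and the mitotic kinase Aurka by 1.02 ± 0.26 (adjusted p = 0.0665). Mitosis genes stood at 1.38, 0.61 and 0.53 on knockout replicates 1 to 3, and replicate 1 was again the highest.

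Erythroid markers lay above wild type, as the replication probes did and as megakaryocyte and natural killer cell genes did. All 12 tested erythroid genes lay above 0, with a median of 1.07 log2 and 3 called higher, where 1.04% of all genes were called higher. Their mean level ran from 11.71 to 12.57 log2 over the knockout arrays and from 10.98 to 11.10 over the wild-type arrays. None of these genes was undetected in either group. Ank1, the red cell ankyrin, rose by 1.30 ± 0.28 and Klf1, an erythroid transcription factor, by 1.28 ± 0.24. Relative to wild type, the erythroid list stood at 1.53, 0.81 and 0.67 on knockout replicates 1 to 3. This mean fell from replicate 1 to 3, as that of all replication probes did, but its step from replicate 2 to 3 rests on Gata1. Alas2, Ank1, Ermap, Hemgn, Rhag, Sptb and Slc4a1 read higher on replicate 3 than on replicate 2. Knockout replicate 1 was the highest knockout array on every tested erythroid gene but Sptb and Slc4a1. Sptb read 7.74, 8.43 and 8.49 on knockout replicates 1 to 3, and Slc4a1 15.77, 15.77 and 15.93. Gata1 read 11.06 on knockout replicate 2 and 9.32 on replicate 3, the widest step between these arrays in the list. Its value on replicate 3 lay inside the wild-type range. The part of the erythroid markers in the replication result was not tested.

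Other cell type lists were read on the same arrays. What the order of a list over 3 knockout arrays reflects was not tested, and helicase loading and chromatin copying also departed from the order of all replication probes. Megakaryocyte genes, all 6 above 0 and 0 called, stood at 0.60, 0.91 and 0.95 on knockout replicates 1 to 3, and 4 natural killer cell genes at 0.15, 0.91 and 0.90. Granulocyte precursor genes, with 6 of 8 called lower where 2.88% of all genes were, stood at -2.59, -1.33 and -1.59. Stem and progenitor genes (3 tested) had a median of 0.34 log2 and germinal centre B cell genes (3 tested) one of -0.25, with 0 called in either list. All 4 tested plasma cell genes were called lower, against the same 2.88% of all genes.

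**Figure D5:**
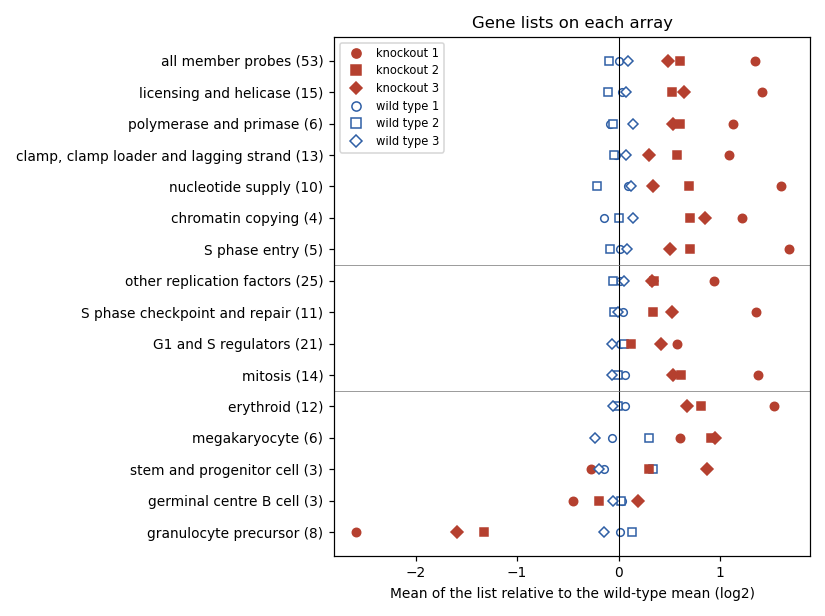
Mean of each gene list relative to its wild-type mean in log2 (x axis) on the 3 knockout arrays (red) and 3 wild-type arrays (blue outlines), symbols giving the replicate, for the replication roles, the other cell cycle lists and cell type markers (y axis, tested probes or genes in brackets). Knockout replicate 1 stands rightmost for all replication roles, mitosis and erythroid genes, at 1.34 for all replication probes against 0.61 and 0.49.

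The 15 untested probes of the listed genes were detected on 2 arrays at most, and 11 of them on none. They were the only probes of Orc1, Pola1, Prim1 and Pcna, and of the 15 differences 9 lay above 0. With no detection filter, 62 of all 68 probes were above 0, with a median of 0.71 log2 and 2 called. The 5 called genes lie on 5 chromosomes and the 38 tested genes on 13.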

How the data were processed

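Total spleen RNA was labelled as biotin cRNA and hybridised to Illumina MouseRef-8 v2 arrays, per the labels' protocols, and groups come from the sample titles. The authors deposited unnormalized signal intensity, and beside it a detection p-value, for every probe, per the file headers. The submitters' processing notes name GenomeStudio 2011.1. A second deposited table holds log2 values, which equal log2 intensity after quantile normalization alone (largest difference 5.0e-07), with a median of 7.24 on each array and no centring per gene. Intensities were processed with neqc in limma 3.58.1 (R 4.3.3, offset 16), which corrects background, quantile-normalizes and takes log2. Differences are thus on a log2(value + offset) scale and understate changes of dim probes, and a shift shared by most transcripts is removed. A linear model with group as its only term was fitted to 12885 probes with lmFit and eBayes (two-sided). The script was tested on simulated data.

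Probe symbols came from the platform annotation, updated against RefSeq (GRCm38.p6); 23978 probes had 1 symbol and 1719 were unnamed here. Genes of supporting lists were read from their brightest tested probe. Members, lists and tests were chosen with earlier results of these data known. Value on every array is given for called probes and, in each role, for those with the largest and smallest difference and the lowest p, and from each pathway list the 2 genes with the lowest p are named. Alternatives covered normalization, background, detection filter, variance model, array weights, a replicate block, 1 probe per gene and each array left out. The 3 arrays per group limit the precision.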

Additional observations from a re-analysis of the deposited data

How the results depend on the processing

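The called replication probes, 5 in the main values, numbered 1 without between-array normalization, 9 with median centring, 2 with no detection filter, 8 with an intensity trend and robust variance, 11 with array weights and 3 of 38 with 1 probe per gene. With single arrays left out they ranged from 0 to 8. They stayed within 1.5 times of 5 with cyclic loess (4), a normexp offset of 50 (6), the authors' log2 values (7), no background correction (7) and the other detection filters (4 and 5), and 0 probes were called lower in any alternative. Their median difference, 0.82 log2, moved by less than the spread between arrays (SD 0.33) in every alternative, with 0.52 to 0.99 over single arrays left out. That SD pools both groups and is wide because it includes knockout replicate 1, the SD within the knockout being 0.46. Without that replicate the median was 0.52, the lowest of all alternatives. The probes called over the whole array, 505 in the main values, were 873 without between-array normalization, 323 when detected on all 6 arrays and 790 with array weights, and 166 to 678 with single arrays left out. Called genes in the pathway lists, 1 in the main values, numbered 8 with median centring, 0 with cyclic loess, 5 without background correction, 2 with a normexp offset of 50, 5 in the authors' values, 0 with no detection filter, 0 when detected on all 6 arrays, 4 with the intensity trend, 4 with array weights, 2 with 1 probe per gene and 0 to 6 with single arrays left out. With the replicate number as a block, 12 replication probes, 8 pathway genes and 887 probes in all were called. The numbers do not pair the samples by the data, since same-numbered arrays had correlations of deviations of 0.50, -0.28 and -0.04. Only replicate 1 of the knockout correlated best with its own number. Knockout replicate 2 correlated best with wild-type replicate 3 (0.48), and knockout replicate 3 with wild-type replicate 2 (0.50). The source of these correlations was not tested. Differences turned below 0 for Pold2 (-0.077) and Rfc4 probe 2 (-0.13) without between-array normalization and for Rfc4 probe 2 with array weights (-0.073). With single arrays left out, Rfc4 probe 2 ranged from -0.19 to 0.30 and Mcm3 from -0.11 to 0.92, both lowest without knockout replicate 1. The cause of these changes was not tested. Dim probes, such as those of Pcna and Orc1, limit what can be seen.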
